A study of Mus musculus with 16 samples.

Results

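A set of 10 genes of the NF-κB system was described in cultured mouse mammary carcinoma cells, namely the dimer subunits Nfkb1, Nfkb2, Rela and Relb, the inhibitors and atypical IκB proteins Nfkbia, Nfkbie, Nfkbiz and Bcl3, and the feedback enzymes Tnfaip3 and Ikbke. They were chosen as a list of symbols by their roles, with earlier results of these data known. All 10 were found among the 33072 Ensembl genes of the count table. The cells were 4T1, a metastatic line, and 67NR, a non-metastatic line, both isogenic and derived from a spontaneous mammary tumor of a BALB/c mouse. Subconfluent cultures in serum-containing medium received the cPLA2α inhibitor CIX at 15 µM or its vehicle DMSO for 24 h, which gave 4 groups (67NR vehicle, 67NR CIX, 4T1 vehicle and 4T1 CIX) of 4 biological replicates each, 16 samples in all. Cytosolic phospholipase A2α (cPLA2α) is the enzyme that releases arachidonic acid from membrane phospholipids. Each metastatic ability was represented by 1 cell line, so that a difference between the lines and a difference between metastatic abilities cannot be told apart. The 16 samples carry the numbers 1 to 16 in the labels, and these numbers name them here.

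NF-κB transcription factors are dimers of Rel family proteins that IκB proteins hold in the cytoplasm until the IκB kinase marks the inhibitor for degradation. Several genes that NF-κB switches on encode its own inhibitors, so that a raised level of their transcripts is a common sign of pathway activity in epithelial and immune cells. Toll-like receptors, interleukin receptors and receptors of the TNF family feed into the same kinase. Transcript levels do not show where in the cell the proteins are, nor whether they bind DNA.

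All members are protein-coding genes, and their positions are those of GRCm38. The subunit genes are Nfkb1 (ENSMUSG00000028163) at chr3:135584655-135691547, Nfkb2 (ENSMUSG00000025225) at chr19:46304320-46312385, Rela (ENSMUSG00000024927) at chr19:5637483-5648130 and Relb (ENSMUSG00000002983) at chr7:19606217-19629438. The inhibitor genes are Nfkbia (ENSMUSG00000021025) at chr12:55489410-55492647, Nfkbie (ENSMUSG00000023947) at chr17:45555703-45563169, Nfkbiz (ENSMUSG00000035356) at chr16:55811375-55838899 and Bcl3 (ENSMUSG00000053175) at chr7:19808462-19822770. The enzyme genes are Tnfaip3 (ENSMUSG00000019850) at chr10:19000910-19015657 and Ikbke (ENSMUSG00000042349) at chr1:131254343-131279606.

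The samples held between 21715700 and 29450629 estimated counts (median 23961313), and levels are given in CPM (counts scaled to a fixed library sum, with sample factors from TMM over all 16 samples). At this depth 3 counts, taken as the smallest detected level, corresponded to 0.102 to 0.138 CPM, a limit that covers counting error only. Sample 13 of the 67NR vehicle group stood apart, with a chi-square per gene of 92.2 to 107 against the other samples of its group, where the other pairs reached 18.1 to 21.5. Samples 3 and 11 of 4T1 vehicle were the most distant pair of one group (115.9), and 4T1 CIX sample 4 was more distant from its group (64.4 to 96.3) than the other samples were from each other (27.1 to 45.5). Both lines are labelled mammary carcinoma, but the summed level of 6 epithelial markers was 3444 to 3928 CPM in 4T1 vehicle and 2.37 to 6.30 CPM in 67NR vehicle. The summed level of 6 fibroblast and mesenchymal markers, nearly all of it Vim, was 1025 to 1173 CPM in 4T1 vehicle and 4561 to 5496 CPM in 67NR vehicle. The summed level of 6 leukocyte markers, carried by the macrophage gene Cd68, was 52.8 to 89.7 CPM in 4T1 vehicle and 9.12 to 14.1 CPM in 67NR vehicle, while the pan-leukocyte marker Ptprc stayed at or below 1.44 CPM in every sample.

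Genes that NF-κB switches on often carry its motif close to their start site, so the promoters of the members were searched for it. RefSeq promoter windows of GRCm38.p6, reaching from 250 bases before to 50 bases after a start site, were at hand for 7 of the 10 genes and not for Nfkb1, Relb and Nfkbiz. A match to the 10-base NF-κB consensus (the kappa-B motif), searched on both strands, was present in windows of 5 of these 7 genes (Nfkb2, Nfkbia, Nfkbie, Tnfaip3 and Bcl3) and absent from those of Rela and Ikbke. Counted in the same way, 9.55% of the 27025 genes of the table had a match in at least 1 of their windows, and 8.46% of all 32851 windows held one. The 150 bases before the start site (the first listed, where there are several) of the members with a match there are given below, 5′ to 3′ on the strand of the gene, with the matches in capitals. They are shown because 4 members that are compared between the cell lines below carry the motif within this distance.

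Nfkbie (chr17:45555550-45555699, plus strand): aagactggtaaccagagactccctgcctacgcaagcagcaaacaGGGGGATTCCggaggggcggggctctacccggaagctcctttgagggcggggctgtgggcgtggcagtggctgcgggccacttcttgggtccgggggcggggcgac
Nfkbia (chr12:55492648-55492797, minus strand): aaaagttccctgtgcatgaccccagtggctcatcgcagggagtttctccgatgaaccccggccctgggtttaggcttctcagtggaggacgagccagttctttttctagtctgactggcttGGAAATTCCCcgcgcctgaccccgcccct
Tnfaip3 (chr10:19015411-19015560, minus strand): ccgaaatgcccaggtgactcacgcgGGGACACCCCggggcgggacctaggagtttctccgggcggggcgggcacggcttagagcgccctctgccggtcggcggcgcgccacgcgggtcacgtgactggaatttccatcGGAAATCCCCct
Nfkb2 (chr19:46304587-46304736, plus strand): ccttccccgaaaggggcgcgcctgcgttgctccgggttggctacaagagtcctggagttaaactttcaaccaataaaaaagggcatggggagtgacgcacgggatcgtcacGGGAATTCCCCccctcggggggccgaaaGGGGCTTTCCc

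The match of Nfkbie lay at bases -106 to -97 from the start site and that of Nfkbia at bases -29 to -20. Tnfaip3 held 2 matches, at -125 to -116 and at -12 to -3. At its first listed start site Nfkb2 held 3, of which those at -39 to -30 and -38 to -29 overlap, and the third lay at -11 to -2. The windows at its 2 other start sites overlap and also held matches, at -236 to -227 and 11 to 20 from one and at -225 to -216 from the other, where the last 2 are the same bases. In Bcl3 the match lay just downstream of the start, at bases 3 to 12. These are matches of letters, and binding was not measured.

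Compared per transcript length, as approximate TPM (transcript units scaled to a fixed sum), Nfkb2, Rela, Nfkbia and Nfkb1 had the highest mean levels of the members in all 4 groups. In 67NR vehicle the highest mean levels were those of Nfkb2 (116 ± 12.3 TPM, SD, n = 4), Rela (110.0 ± 14.5 TPM) and Nfkbia (101 ± 9.85 TPM). In 4T1 vehicle Nfkbia led with 203 ± 17.7 TPM, followed by Nfkb2 with 189.6 ± 22.1 TPM and Rela with 119 ± 11.3 TPM. Bcl3 was the least abundant in 67NR vehicle, at 0.501 ± 0.399 TPM, and also in 4T1 vehicle, at 19.3 ± 3.33 TPM. In 4T1 vehicle its samples overlapped those of Tnfaip3 (19.9 ± 6.02 TPM) and Nfkbie (25.0 ± 3.64 TPM). Relb, next above Nfkbie at 35.4 ± 2.36 TPM, did not overlap it. Ikbke stood at 7.35 ± 0.405 TPM in 67NR vehicle and at 52.0 ± 21.4 TPM in 4T1 vehicle, where it passed Nfkbiz and Relb in the order of means.

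**Figure D1:**
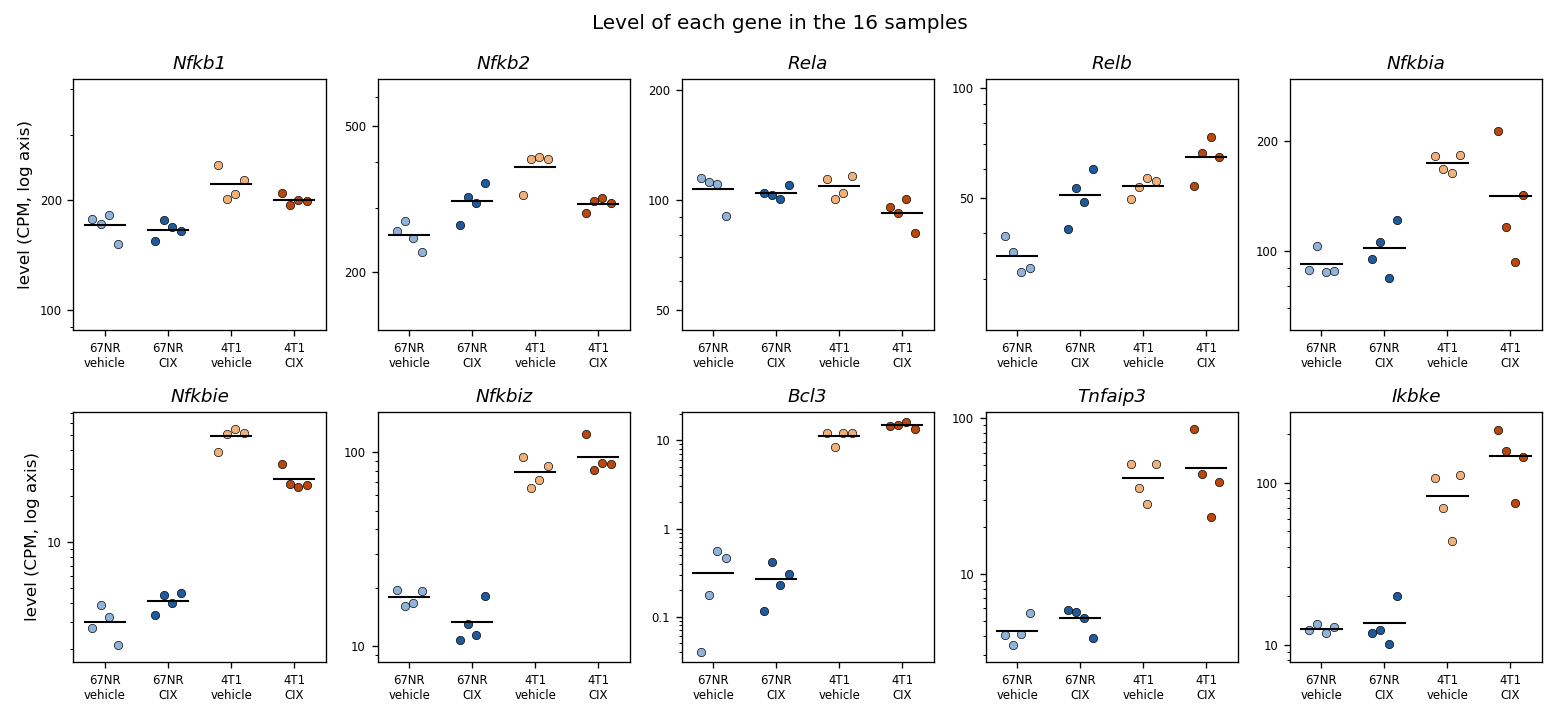
Level in CPM (log axis) of each of the 10 genes in the 16 samples; points are samples and horizontal bars are group means of 4 samples. Nfkbie, Nfkbiz, Bcl3, Tnfaip3 and Ikbke separate the 4T1 groups from the 67NR groups without overlap, whereas Rela lies between 81.2 and 116.3 CPM in every sample.

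The comparison of the vehicle groups asks how the metastatic and the non-metastatic line differ without inhibitor. Most members were higher in 4T1: 7 of the 9 members tested were called higher and none lower by limma-voom with Benjamini-Hochberg adjustment at 0.001, against a background of 40.0% of the 11044 genes tested called in either direction and 20.4% called higher. The median log2 fold change of the 9 members was 0.92, and that of all genes tested was -0.01. Because the members were chosen with earlier results of these data known, these shares describe the list and test nothing about it. The samples of the vehicle groups did not overlap for 8 of the 9 members, all of them higher in 4T1, which held for 61.6% of all genes tested in either direction and for 31.3% in this one. Bcl3 was not tested, because its TPM was below 1 in more than 3 of the 8 samples, and since the filter needs expression in at least 5 samples, no member passed it through 1 group only.

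Among the inhibitors tested, Nfkbie, which encodes IκBε, had the largest fold change. Its level was 2.73, 3.87, 3.25 and 2.125 CPM in 67NR vehicle (samples 1, 5, 9 and 13) and 38.5, 50.9, 54.7 and 51.3 CPM in 4T1 vehicle (samples 3, 7, 11 and 15). The lowest 4T1 sample was thus well above the highest 67NR sample. The log2 fold change was 4.03 ± 0.21 (SE, limma-voom adjusted p = 5.43e-07), which is 16.3-fold with a 95% confidence interval of 11.7 to 22.8. Nfkbiz, which encodes the nuclear protein IκBζ that helps NF-κB at secondary response genes, was at 19.6, 16.2, 16.7 and 19.4 CPM in 67NR vehicle. In 4T1 vehicle it reached 94.95, 65.6, 71.6 and 84.8 CPM, with a log2 fold change of 2.12 ± 0.15 (adjusted p = 2.81e-06). Nfkbia, which encodes the classical inhibitor IκBα, was expressed strongly in both lines. It stood at 88.6, 103, 87.4 and 88.0 CPM in 67NR vehicle and at 182, 168, 163.5 and 183 CPM in 4T1 vehicle, with a fold change of 0.92 ± 0.08 on the log2 scale (adjusted p = 1.27e-05) and no overlap between the groups. Bcl3, a nuclear IκB protein that works with dimers of the Nfkb1 and Nfkb2 products, was close to undetected in 67NR vehicle, with 1 to 14 estimated counts and 0.0396, 0.178, 0.555 and 0.468 CPM. In 4T1 vehicle it was at 12.1, 8.34, 12.1 and 12.1 CPM, every sample above every 67NR sample. Fitted without the filter on low values, its log2 fold change was 5.50 ± 0.55 (adjusted p = 1.15e-05), a value that depends on the offset added to low counts.

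Both feedback enzymes were higher in 4T1. Tnfaip3, which encodes a ubiquitin-editing enzyme that shuts down signalling upstream of the IκB kinase, was at 4.08, 3.51, 4.08 and 5.57 CPM in 67NR vehicle and at 50.7, 35.4, 28.0 and 51.1 CPM in 4T1 vehicle. Its log2 fold change was 3.22 ± 0.30 (limma-voom adjusted p = 1.33e-05), or 9.35-fold (95% confidence interval 5.84 to 15.0). Ikbke, which encodes the IκB kinase related kinase IKKε of innate immune signalling, was tightly grouped in 67NR vehicle, at 12.3, 13.4, 11.7 and 12.9 CPM. It spread over a wider range in 4T1 vehicle, at 107, 70.1, 43.5 and 111 CPM, and its log2 fold change was 2.62 ± 0.34 (adjusted p = 1.11e-04), or 6.15-fold (95% confidence interval 3.61 to 10.5). The groups did not overlap for either enzyme.

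The dimer subunits differed less. Nfkb2, which encodes the precursor of the non-canonical pathway, was at 259.5, 276, 247 and 227 CPM in 67NR vehicle and at 325, 408, 412 and 407 CPM in 4T1 vehicle, 0.61 ± 0.09 apart on the log2 scale (limma-voom adjusted p = 3.43e-04). Relb, the partner of the processed Nfkb2 product, was at 39.3, 35.6, 31.5 and 32.3 CPM in 67NR vehicle and at 49.7, 53.4, 56.6 and 55.7 CPM in 4T1 vehicle, with a log2 fold change of 0.63 ± 0.09 (adjusted p = 2.45e-04). These calls were the least secure of the 7: leaving out 1 sample at a time, Nfkb2 was called in 2 of 8 fits (adjusted p up to 0.00216) and Relb in 4 of 8 (up to 0.00143), whereas the other 5 were called in all 8. Without 67NR vehicle sample 13, which stood apart, 6 members were called and Nfkb2 was not (adjusted p = 0.00132). With sets of 4 sample numbers as a block, a fit added after seeing the data, neither Nfkb2 nor Relb was called. Nfkb1, which encodes the precursor of the canonical small subunit, did not pass (log2 fold change 0.36 ± 0.09, adjusted p = 0.00666), although the samples did not overlap, with 151 to 182 CPM in 67NR vehicle and 201.5 to 249 CPM in 4T1 vehicle. Rela, which encodes the transactivating canonical subunit, had a log2 fold change of 0.02 ± 0.09 (adjusted p = 0.87), with a 95% confidence interval of -0.19 to 0.23, and its samples overlapped. Nfkb2 overlaps Psd and another gene on the other strand, and Bcl3 and Ikbke overlap predicted genes on the other strand, so that some of their reads could belong to a partner if strand was not used in counting. Nfkb1 overlaps the predicted gene Gm43430 on the same strand, where strand does not separate the reads. Reads were assigned to transcripts, and 0.514% of the 31-base words in Nfkb1 transcripts also occur in transcripts of other genes. The values of Nfkb1 are uncertain to that extent. The epithelial and mesenchymal markers given above moved with the same comparison, and their part in these differences was not tested.

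**Figure D2:**
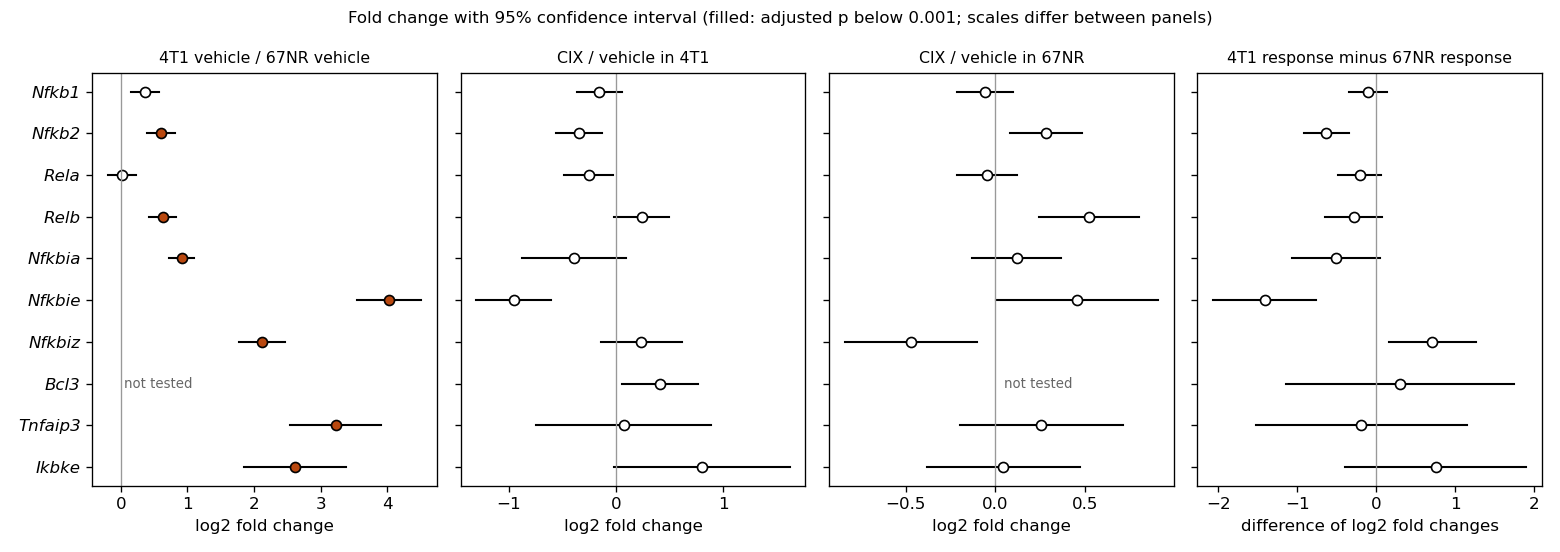
Log2 fold change (x axis) of each member with its 95% confidence interval in the 3 comparisons of groups, and the difference between the CIX responses of the lines in the last panel. Filled points passed an adjusted p of 0.001: 7 members in the comparison of the vehicle groups and none in the other panels, where Nfkbie is farthest below 0 in 4T1 and in the difference.

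The rest of the pathway was read from a list of 73 further genes, of which 58 were tested between the vehicle groups, with 23 called higher in 4T1, 4 called lower and a median log2 fold change of 0.51. Of all genes tested, 40.0% were called in either direction and 20.4% higher. This list was also chosen with earlier results of these data known. Of the 30 target genes, the longest of these lists, 18 were tested, with 11 higher, 1 lower and a median log2 fold change of 2.64. The others did not pass the filter. Among them Il1a and Plau were at most 0.912 and 0.793 CPM in 67NR vehicle and at least 185.7 and 426.4 CPM in 4T1 vehicle. Tnf and Cd83, also left out, were at or below 0.1235 CPM in both vehicle groups. Of the target genes tested, the granulocyte growth factor Csf3 (12.48 ± 1.28), the siderophore-binding protein Lcn2 (9.31 ± 1.14) and the neutrophil chemokine Cxcl1 (5.56 ± 0.31) had the largest log2 fold changes. The macrophage growth factor Csf1 was lower by 1.06 on the log2 scale. Csf3 was at or below 2.30 CPM and Lcn2 at or below 1.35 CPM in 67NR vehicle, so that both fold changes depend on low counts. Of the remaining subunit and IκB genes, both tested were higher in 4T1, Rel at 1.44 ± 0.12 and Nfkbib at 0.91 ± 0.09. Nfkbid did not pass the filter, at 0 CPM in 67NR vehicle and 6.075 to 7.701 CPM in 4T1 vehicle. Of 10 genes of the IκB kinase complex and its upstream kinases, Ikbkb (1.41 ± 0.16) and Tab2 (1.10 ± 0.08) were higher. Of 9 adaptors tested, 4 were called higher, led among these by Traf1 (2.43 ± 0.14), Tradd (1.90 ± 0.12) and Traf3 (1.38 ± 0.13). Ripk1 (-1.21 ± 0.12) and Traf5 (-1.14 ± 0.15) were called lower. Birc3 did not pass the filter, at 0.298 to 0.753 CPM in 67NR vehicle and 73.8 to 89.1 CPM in 4T1 vehicle. Of 12 other negative regulators, Zc3h12a (2.73 ± 0.26), Tnip1 (1.09 ± 0.16) and Nkiras2 (0.90 ± 0.10) were higher and Commd1 (-1.27 ± 0.11) was lower. Of 7 receptors, only Cd40 was called (2.61 ± 0.26).

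CIX was compared with vehicle in 4T1, which asks whether the inhibitor moves the pathway genes in the metastatic line. No member was called by limma-voom at 0.001, where 9.32% of the 11664 genes tested were called. By the same test 4 of 10 members had an unadjusted p below 0.05 (51.1% of all genes), and 2 members, Nfkbie and Nfkb2, an adjusted p below 0.05 (42.7% of all genes). By edgeR 0 were called (8.86% of all genes) and 5 had an unadjusted p below 0.05 (51.0%), and by DESeq2 1 was called (26.6%) and 5 were below it (52.6%). The samples of the groups did not overlap for 4 members (39.9% of all genes), of which 3 were lower with CIX (18.7%) and 1 was higher (21.2%). This comparison shares the 4T1 vehicle samples with the comparison of the vehicle groups.

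Nfkbie was the member with the largest fold change with all samples, and Ikbke exceeded it in size without 4T1 vehicle sample 15 or 4T1 CIX sample 12. Nfkbie was at 38.5, 50.9, 54.7 and 51.3 CPM in 4T1 vehicle and at 32.1, 23.7, 23.0 and 23.5 CPM in 4T1 CIX (samples 4, 8, 12 and 16). All CIX samples were below all vehicle samples, with 4T1 CIX sample 4 the highest of its group. The log2 fold change was -0.95 ± 0.16, which is 0.517 of the vehicle level (95% confidence interval 0.406 to 0.657), and its adjusted p of 0.00127 by limma-voom lay just above the threshold. DESeq2 called it (adjusted p = 2.73e-07), as did the limma-voom fit over all 16 samples, which called 23.0% of all genes (adjusted p = 3.32e-05), and so did the limma-voom fits without 4T1 vehicle sample 3 or without 4T1 CIX sample 4. Nfkb2 was at 325, 408, 412 and 407 CPM in 4T1 vehicle and at 290.1, 313, 318 and 308 CPM in 4T1 CIX. It did not pass (log2 fold change -0.35 ± 0.10, adjusted p = 0.0161), although the groups did not overlap. Rela was separated by a narrow gap, with 100.7 to 116 CPM in vehicle and 81.2 to 100.4 CPM in CIX (log2 fold change -0.26 ± 0.10, adjusted p = 0.0664). Bcl3 was separated in the other direction, at 12.1, 8.34, 12.1 and 12.1 CPM in vehicle and 14.7, 15.1, 16.4 and 13.4 CPM in CIX (log2 fold change 0.41 ± 0.16, adjusted p = 0.0622).

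The remaining members did not pass, and their intervals show what sizes the data leave. Nfkb1 had a log2 fold change of -0.16 (95% confidence interval -0.36 to 0.05) and Relb of 0.24 (-0.02 to 0.49). Nfkbiz, at 80.6 to 124.6 CPM with CIX and 65.6 to 94.95 CPM in vehicle, had 0.24 (-0.14 to 0.61), and 0.08 without 4T1 CIX sample 4. Nfkbia, Tnfaip3 and Ikbke spread widely among the 4T1 CIX samples. Nfkbia was at 212, 116, 93.4 and 142 CPM with CIX, on both sides of the 163.5 to 183 CPM of vehicle, and the log2 fold change was -0.39 ± 0.21 (limma-voom adjusted p = 0.17). Without 4T1 CIX sample 4, which stood apart, the log2 fold change of Nfkbia was -0.63 (limma-voom adjusted p = 0.00666), which did not pass either. Tnfaip3 was at 84.9, 43.7, 23.3 and 39.1 CPM with CIX, spanning the 28.0 to 51.1 CPM of vehicle, with a log2 fold change of 0.07 (-0.74 to 0.88), and of -0.28 without sample 4. Ikbke was at 211, 156, 75.3 and 143 CPM with CIX and 43.5 to 111 CPM in vehicle, with a log2 fold change of 0.80 ± 0.36 (95% confidence interval -0.02 to 1.62, adjusted p = 0.105). Ikbke also spread widely in vehicle, at 107, 70.1, 43.5 and 111 CPM (samples 3, 7, 11 and 15). Leaving out 1 sample moved its log2 fold change within 0.517 to 1.083 (limma-voom adjusted p 0.0248 to 0.2405). Each CIX sample was above the vehicle sample of the same set of 4 consecutive numbers. With these sets as a block, a fit added after seeing the data, the limma-voom adjusted p of Ikbke was 0.00295, which did not pass either. Of the 4T1 CIX samples, sample 4 was the highest for 6 of the 10 members and the lowest for 2, and sample 12 was the highest for 4 and the lowest for 4. The summed leukocyte markers were 132.7 to 198 CPM in 4T1 CIX against 52.8 to 89.7 CPM in vehicle, through Cd68, which was called higher. Ptprc, Csf1r, Cd3e and Lyz2 of the same list were too low to be tested, with means of 0.497 CPM with CIX and 1.225 CPM in vehicle for Ptprc, 0.328 CPM and 0.513 CPM for Csf1r, and at most 0.0821 CPM in any 4T1 sample for Cd3e and Lyz2. The summed mesenchymal markers were 2448 to 2831 CPM against 1025 to 1173 CPM, through Vim, which was called higher, while the other 5 were at or below 3.32 CPM in every 4T1 sample and were not tested. The summed epithelial markers were 4044 to 4329 CPM against 3444 to 3928 CPM, with Epcam called lower (186 ± 11.9 CPM against 314.6 ± 3.13 CPM, SD, n = 4). The part of these markers in the members' values was not tested.

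The same contrast was made in the 8 samples of the non-metastatic 67NR line, where 0.389% of the 11566 genes tested were called. No member was called of the 9 tested by limma-voom, 4 had an unadjusted p below 0.05 (32.8% of all genes), and 1, Relb, an adjusted p below 0.05 (17.8%). By edgeR 0 were called (0.398% of all genes) and 3 had an unadjusted p below 0.05 (33.0%), and by DESeq2 1 was called (9.03%) and 3 were below it (33.4%). Bcl3 was not tested, at 0.116 to 0.412 CPM with CIX. The groups did not overlap for Relb alone among the members tested, against 23.3% of all genes, 12.7% with CIX higher.

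Relb was the member with the largest fold change in 67NR with all samples, an order that turned in some fits without 1 sample. Without 67NR CIX sample 14 the log2 fold change was 0.45 for Relb and -0.63 for Nfkbiz. Relb was at 39.3, 35.6, 31.5 and 32.3 CPM in vehicle and at 41.3, 53.4, 48.8 and 59.9 CPM in 67NR CIX (samples 2, 6, 10 and 14). All CIX samples were above all vehicle samples. The log2 fold change was 0.52 ± 0.12 (limma-voom adjusted p = 0.0203), or 1.44-fold (95% confidence interval 1.19 to 1.74), and DESeq2 called it (adjusted p = 9.58e-04). Nfkb2 was at 268, 321, 309 and 349.5 CPM with CIX and 227 to 276 CPM in vehicle (log2 fold change 0.28 ± 0.09, adjusted p = 0.056). Nfkbiz was at 10.8, 13.0, 11.4 and 18.2 CPM with CIX and 16.2 to 19.6 CPM in vehicle (log2 fold change -0.47 ± 0.16, adjusted p = 0.0778). Neither passed, and both overlapped vehicle through 1 CIX sample, sample 2 for Nfkb2 and sample 14 for Nfkbiz. Nfkbie was at 3.35 to 4.66 CPM with CIX and 2.125 to 3.87 CPM in vehicle (log2 fold change 0.46 ± 0.20, adjusted p = 0.15). The other 5 members had log2 fold changes between -0.06 and 0.26. Leaving out 67NR vehicle sample 13 gave 0 called members as well. In the same comparison the summed leukocyte markers were 35.4 to 41.7 CPM with CIX and 9.12 to 14.1 CPM in vehicle, through Cd68, which was called higher. Lyz2 had means of 0.981 CPM with CIX and 1.66 CPM in vehicle (limma-voom adjusted p = 0.0686), and Ptprc, Csf1r and Cd3e were at or below 0.158 CPM in every 67NR sample. The summed mesenchymal markers were 7316 to 8378 CPM with CIX and 4561 to 5496 CPM in vehicle, through Vim alone (log2 fold change 0.58 ± 0.07, limma-voom adjusted p = 0.00133). The means of the other 5 mesenchymal markers were lower with CIX, led by Pdgfrb (30.99 ± 2.79 CPM against 52.1 ± 8.30 CPM, SD, n = 4, limma-voom adjusted p = 0.00425), and of the 4 tested none was called, with a median log2 fold change of -0.56. The summed epithelial markers were 1.32 to 4.57 CPM with CIX and 2.37 to 6.30 CPM in vehicle. The part of these markers was not tested.

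The difference between the responses of the lines was tested with the interaction term over all 16 samples, so that this test shares every sample with the comparisons above. No member was called at 0.001 by limma-voom, where 7.86% of 12613 genes were called, and 3 had an unadjusted p below 0.05 (39.1% of all genes), the same number as had an adjusted p below 0.05 (29.3%). For Nfkbie the response in 4T1 minus that in 67NR was -1.41 ± 0.31 on the log2 scale ( 95% confidence interval -2.06 to -0.76, adjusted p = 0.00275). For Nfkb2 the difference was -0.63 ± 0.13 (95% confidence interval -0.92 to -0.35, adjusted p = 0.00237), with a lower level under CIX in 4T1 and a higher one in 67NR. Nfkbiz differed in the other direction, by 0.71 ± 0.26 (adjusted p = 0.0494). DESeq2 called Nfkb2 (adjusted p = 4.74e-05) and Nfkbie (adjusted p = 2.65e-06) among 15.7% of all genes, and edgeR called Nfkbie (adjusted p = 8.20e-04) among 8.06%, with 3 members below an unadjusted p of 0.05 in each (41.1% of all genes by DESeq2 and 39.7% by edgeR). Leaving out 4T1 vehicle sample 3 gave 2 calls by limma-voom, Nfkb2 and Nfkbie, and leaving out 4T1 CIX sample 4 gave Nfkbie. The other 7 members had differences between -0.51 and 0.75, each with a 95% confidence interval that included 0. Bcl3 is among them, although it passed the filter in 4T1 only. Its interval, 0.453-fold to 3.34-fold, rests on 1 to 14 estimated counts per sample in 67NR and says little about a difference.

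Under CIX in 4T1, 68 of the 73 further pathway genes were tested and 3 were called, where 9.32% of all genes were. Commd1, a negative regulator that promotes the turnover of Rela, was called higher (1.20 ± 0.12). The T-cell chemokine Ccl5 (-2.47 ± 0.36) and the caspase inhibitor Cflar (-0.68 ± 0.08) were called lower, and the remaining 65 passed in neither direction. The 26 target genes tested had a median log2 fold change of -0.45, where that of all genes was -0.01. Of the 68, 29 had an unadjusted p below 0.05 (51.1% of all genes), edgeR called 4 (8.86%) and DESeq2 called 14 (26.6%). Rel, which the paper lists as differentially expressed in 4T1, was among those not called here. It was at 24.05 to 30.79 CPM in 4T1 vehicle and 16.08 to 22.21 CPM in 4T1 CIX. In 67NR 55 were tested and 0 were called by limma-voom, with 21 at an unadjusted p below 0.05 (32.8% of all genes), while edgeR called 0 and DESeq2 called 7 (9.03%). The response of Commd1 was the only one called to differ between the lines among 68 tested by limma-voom (1.37 ± 0.13), where 7.86% of all genes were called, and DESeq2 called 8 (15.7% of all genes). In Commd1 the level rose from 20.9 to 28.7 CPM in 4T1 vehicle to 55.4 to 60.4 CPM in 4T1 CIX, and was 50.7 to 64.3 CPM in both 67NR groups.

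**Figure D3:**
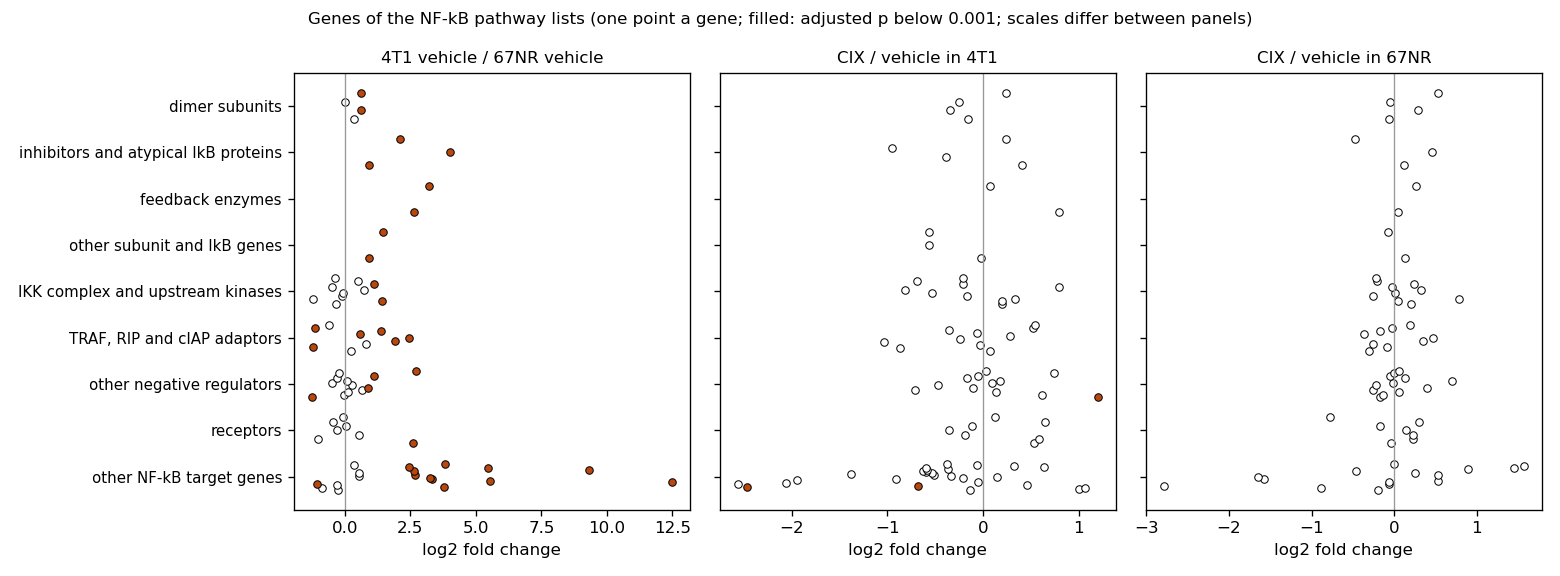
Log2 fold change (x axis) of each tested gene of the member and pathway lists in 3 comparisons of groups; each point is 1 gene, filled where its adjusted p was below 0.001, and its vertical offset within a list has no meaning. The target genes extend to 12.48 in the comparison of the vehicle groups, whereas under CIX in 4T1 only Commd1, Ccl5 and Cflar are filled and in 67NR no gene is.

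Across the 4 groups the members fell into orders that differ by gene. The group means of Nfkbie ascended from 67NR vehicle through 67NR CIX and 4T1 CIX to 4T1 vehicle, with overlap only between the 67NR groups. Tnfaip3 and Ikbke were lowest in 67NR vehicle and highest in 4T1 CIX, and their samples overlapped between the groups of each line and not between the lines. Bcl3 and Nfkbiz were lowest in 67NR CIX and highest in 4T1 CIX. Nfkb1 was higher in both 4T1 groups than in both 67NR groups, and the groups of each line overlapped. Nfkb2 was lowest in 67NR vehicle and highest in 4T1 vehicle, with 4T1 CIX (mean 307.2 CPM) and 67NR CIX (312 CPM) between them and overlapping. The means of Nfkbia ascended from 67NR vehicle through 67NR CIX and 4T1 CIX to 4T1 vehicle, and each group overlapped the next. Relb was lowest in 67NR vehicle and highest in 4T1 CIX, with overlap among all groups other than 67NR vehicle. The mean of Rela was lowest in 4T1 CIX, whose samples (81.2 to 100.4 CPM) overlapped those of 67NR vehicle (90.25 to 114.7 CPM), and the 3 other groups overlapped each other. The group means of Rela differed at most 1.18-fold, those of Nfkbie at most 16.3-fold and those of Bcl3 at most 56.1-fold, where the lowest group of Bcl3 held 3 to 10 estimated counts per sample.

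For the members other than Bcl3 the gene with the most similar profile was sought by the Pearson correlation of log2 CPM over the 16 samples among 12612 genes, as a description, since the samples form separate clusters by cell line. The closest profiles were those of Tmem205 for Nfkbie (0.991), Thsd4 for Nfkbiz (0.986), Tmem51 for Tnfaip3 (0.986) and Secisbp2l for Ikbke (0.986). They were those of Fkbp15 for Relb (0.954), Enoph1 for Nfkb1 (0.949), P2ry6 for Nfkbia (0.944), Plod3 for Nfkb2 (0.939) and Trex1 for Rela (0.844). The lowest of these was that of Rela, the member with the narrowest range of levels. None of these 9 was the closest profile of another.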

How the data were processed

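RNA from 4T1 and 67NR cells, 4 groups of 4 biological replicates by the study's methods, was sequenced as single-end reads from stranded poly-A libraries. Per the labels and the paper the authors quantified the reads with salmon (version 0.12) against Ensembl GRCm38 and used tximport to reach the gene level; they deposited these estimated counts, which carry no normalization. Of the nonzero values, 0.483% were whole (within 0.001). The labels name the human build GRCh38, but the identifiers are those of mouse genes. All 16 columns were mapped to samples by their numbers.

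The estimated counts were rounded. TPM was approximated with the mean transcript length of each gene (GENCODE M21), and genes with TPM below 1 in more than 3 samples of a fit were left out (for the interaction, only where this held in both lines). Testing used limma-voom on TMM-scaled counts (limma 3.58.1, edgeR 4.0.16, R 4.3.3), adjusted over all genes tested, at an adjusted p of 0.001. It was tested on simulated data. Alternatives were edgeR's quasi-likelihood test, DESeq2 (1.42.0), its size factors, library size only, no filter, 1 fit over 16 samples, a threshold of 0.05, leaving out each sample, and a block by sets of 4 sample numbers. The similarity of profiles used log2(CPM + 0.1). All 10 members were named, with the closest gene to each (that of Bcl3 is not reported here) and at most 3 called genes per direction of each pathway list. The members and lists were chosen with earlier results of these data known. Promoters came from RefSeq. No coordinates other than GRCm38 were used.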

Additional observations from a re-analysis of the deposited data

Results flagged for a closer look

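In 6 of 40 groups of 4 samples the highest or lowest sample lay farther from its neighbour than Dixon's critical value at the 95% level allows, and chance gives about 2 in 40 (1 in 20). Nfkb2 was at 324.9 CPM in 4T1 vehicle sample 3, where the other 3 samples were at 407.3 to 412.2 CPM. Sample 13 of 67NR vehicle had Rela at 90.25 CPM and the others 110.8 to 114.7 CPM, and this sample also stood apart over all genes. Sample 5 of the same group had Nfkbia at 103.2 CPM, against 87.39 to 88.63 CPM elsewhere in it. In 4T1 CIX sample 4, Nfkbie was at 32.12 CPM and the others at 22.97 to 23.72 CPM, and Nfkbiz was at 124.6 CPM and the others at 80.55 to 87.8 CPM. Bcl3 was at 8.338 CPM in 4T1 vehicle sample 7, with the others at 12.07 to 12.15 CPM.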

How the results depend on the processing

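Between the vehicle groups 7 members were called, with 4419 of 11044 genes. The number was 8 at a threshold of 0.05 (7449 of 11044 genes), in the fit over all 16 samples (5121 of 11044) and without the filter (6461 of 22724). At a threshold of 0.05, 2 members were called in 4T1, 1 in 67NR and 3 in the difference between the lines. DESeq2 called 1, 1 and 2. The fit over all 16 samples called 1 in 4T1, and edgeR called 1 in the difference. Leaving out 1 sample gave 5 to 7 called members between the vehicle groups, 0 to 1 in 4T1, 0 in 67NR and 0 to 2 in the difference. Over all members and comparisons, the other alternatives kept direction and side of the threshold in 277 of 294 values, and leaving out a sample kept both in 359 of 384. The sign of Rela between the vehicle groups turned without the filter (-0.0035) and within -0.032 to 0.082 when leaving out a sample. Other values that turned when leaving out a sample were those of Tnfaip3 and Ikbke under CIX (-0.278 to 0.363 in 4T1 and -0.149 to 0.156 in 67NR) and of Bcl3 and Tnfaip3 in the difference (-0.133 to 0.985 and -0.523 to 0.117). The cause was not tested. Over all genes, leaving out 1 sample gave 269 to 975 calls in 4T1 (1087 with all samples) 0 to 75 in 67NR (45 with all samples), 3495 to 4366 between the vehicle groups and 654 to 1050 in the difference (992 with all samples). Depth limits the values of Bcl3 in 67NR, at 1 to 14 estimated counts in vehicle. The labels do not say that sample numbers pair samples. Each set of 4 consecutive numbers holds every group once, and a fit with these sets as a replicate block was added after seeing the data. Within 4T1, deviations from the group means correlated at 0.055 to 0.322 in the same set and at -0.204 to 0.144 in different sets. Within 67NR these ranges were -0.058 to 0.069 and -0.051 to 0.101. Between the vehicle groups they were -0.226 to 0.136 and -0.244 to 0.351. The sets were not taken as pairs in the main fits, and whether they pair the samples of 4T1 is not settled. The block gave 5 called members between the vehicle groups, where Nfkb2 (adjusted p = 0.00259) and Relb (0.00355) were lost, and 0 in the other comparisons. For Ikbke in 4T1 its adjusted p was 0.00295. Over all genes it gave 0 calls in 67NR, 1144 in 4T1, 3007 between the vehicle groups and 1093 in the difference.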
